A study of Mus musculus with 24 samples.

Results

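The genes that carry fatty acids into mitochondria, burn them there and in peroxisomes, and answer to the nuclear receptor PPAR alpha were followed in the choroid plexus of old mice that express a human form of apolipoprotein E. The 33 genes were listed by name, and a gene was read from the probe sets (groups of short DNA probes against a single transcript) that the array's annotation assigns to that gene alone. Where several probe sets read a gene, the brightest over all arrays stood for it. Of the 33 genes, 30 had such a probe set, and 28 were called Present, the authors' call that a transcript was detected, on at least 6 of 24 arrays. Those 28 were tested among 8261 genes of 12393 on the array.

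The mice were C57BL, 78 weeks old, and carried a humanized ApoE3 or a humanized ApoE4 knock-in, so that every group has a human in place of a mouse apolipoprotein E and none has the mouse form as a control. Each genotype was kept on normal chow (labelled ND) or on a high-fat diet (labelled HFD), of which the labels give neither composition nor duration. Each of the 4 groups held 6 arrays, 3 of males and 3 of females. Choroid plexus, the tissue in the brain ventricles that secretes cerebrospinal fluid, was cut from fresh-frozen tissue under a microscope by laser capture. Whether the 6 arrays of a group come from 6 animals is not labelled, and p-values therefore rest on array-to-array spread that may be partly technical.

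Fatty acids are bound in the cytosol, activated to coenzyme A esters and passed across the inner mitochondrial membrane as carnitine esters. Inside, each turn of beta-oxidation dehydrogenates, hydrates, oxidizes and cleaves the chain, and the electrons of the acyl-CoA dehydrogenases leave through the electron transfer flavoprotein. Auxiliary isomerases and a reductase prepare unsaturated chains, and peroxisomes shorten chains that mitochondria handle poorly. PPAR alpha pairs with a retinoid X receptor, is activated by fatty acids and raises many of these genes in liver, heart and muscle during fasting.

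The promoters of 28 of the 33 genes were held in a RefSeq table for the mouse build GRCm38.p6, as windows from 250 bases before to 50 bases after the start of transcription. They were searched on both strands for the PPAR response element, taken as 2 half-sites AGGTCA in a row with 1 base of any kind between them and at most 2 mismatches in all. A match was found in 4 of 28 genes, 14.3%, against 4.4% of all 27025 genes in the table. The 4 were Plin2, Slc25a20, Etfa and Echs1. The glucocorticoid response element, AGAACA and TGTTCT with 3 bases of any kind between them and at most 2 mismatches, matched 0 of 28 genes against 2.1% of all genes. The E-box CACGTG, which allowed no mismatch, matched Plin2 and Slc27a1, 7.14% of the genes against 8.09% of all genes. Matches describe letters in these windows and were not tested for binding, and the windows of these genes had a higher median GC content (60.7%) than all windows (52.7%). The 4 promoters with a match to the PPAR element come first, with matches in capitals (in Plin2 the later capitals are the E-box). Those of Pdk4 and Etfdh, in which none of the 3 motifs matched, follow because both genes rose in ApoE4 mice on chow. Each runs 5′ to 3′ on the strand of its gene.
Plin2, chr4:86670010-86670309, minus strand: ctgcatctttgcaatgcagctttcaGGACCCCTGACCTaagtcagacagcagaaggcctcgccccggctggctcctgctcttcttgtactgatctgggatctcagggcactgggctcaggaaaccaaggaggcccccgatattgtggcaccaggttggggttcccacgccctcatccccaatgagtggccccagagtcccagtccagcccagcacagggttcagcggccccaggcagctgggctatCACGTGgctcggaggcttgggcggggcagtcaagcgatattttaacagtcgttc
Slc25a20, chr9:108661886-108662185, plus strand: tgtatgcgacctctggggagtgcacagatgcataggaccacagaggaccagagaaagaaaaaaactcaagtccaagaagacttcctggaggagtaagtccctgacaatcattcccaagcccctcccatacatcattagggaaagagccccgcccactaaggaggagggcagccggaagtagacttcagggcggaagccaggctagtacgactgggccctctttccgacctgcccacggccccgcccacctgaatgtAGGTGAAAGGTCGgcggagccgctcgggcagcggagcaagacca
Etfa, chr9:55512194-55512493, minus strand: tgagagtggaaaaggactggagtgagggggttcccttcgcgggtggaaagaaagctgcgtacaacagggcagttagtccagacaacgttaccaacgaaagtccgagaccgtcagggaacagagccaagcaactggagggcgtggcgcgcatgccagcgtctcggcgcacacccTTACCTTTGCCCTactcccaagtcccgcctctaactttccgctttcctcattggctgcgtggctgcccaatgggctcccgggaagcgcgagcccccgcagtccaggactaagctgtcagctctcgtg
Echs1, chr7:140116372-140116671, minus strand: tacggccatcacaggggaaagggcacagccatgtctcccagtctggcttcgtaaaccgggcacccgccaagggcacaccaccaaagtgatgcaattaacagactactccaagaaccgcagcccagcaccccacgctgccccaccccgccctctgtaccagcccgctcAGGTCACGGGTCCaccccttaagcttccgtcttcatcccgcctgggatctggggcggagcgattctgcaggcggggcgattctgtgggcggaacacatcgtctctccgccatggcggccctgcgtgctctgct
Pdk4, chr6:5496229-5496528, minus strand: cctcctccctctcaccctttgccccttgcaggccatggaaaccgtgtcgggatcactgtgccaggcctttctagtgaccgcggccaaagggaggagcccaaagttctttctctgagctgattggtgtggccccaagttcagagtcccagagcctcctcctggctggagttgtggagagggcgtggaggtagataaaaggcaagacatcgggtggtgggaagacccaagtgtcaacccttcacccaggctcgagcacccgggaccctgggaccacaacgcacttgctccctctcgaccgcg
Etfdh, chr3:79628718-79629017, minus strand: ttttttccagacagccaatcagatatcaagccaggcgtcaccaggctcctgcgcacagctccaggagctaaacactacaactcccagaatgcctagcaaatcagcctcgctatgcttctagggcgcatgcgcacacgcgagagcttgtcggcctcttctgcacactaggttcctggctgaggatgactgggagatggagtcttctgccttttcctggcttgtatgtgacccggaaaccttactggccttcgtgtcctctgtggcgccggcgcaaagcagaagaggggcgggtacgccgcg

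The deposited signals are linear intensities that the authors scaled array by array, and the 24 arrays had trimmed means of 500.173 to 500.194. All 9 choroid plexus epithelium markers on the array were Present on at least 3 arrays of every group, and the neuronal markers Camk2a, Rbfox3 and Syn1 were Present on 0 arrays. Of 9 neuronal markers on the array, 3 to 4 were Present on at least 3 arrays of a group, and their summed signal was 896 to 1290 in ApoE3 and 711 to 1132 in ApoE4 on chow, and 1157 to 1304 against 780 to 1646 on high-fat diet. The fat cell markers Adipoq, Lep and Retn were also Present on 0 arrays. The 5 fat cell markers on the array summed to 392 to 554 in ApoE3 and 267 to 394 in ApoE4 on chow, and to 419 to 495 against 240 to 331 on high-fat diet, with 1 to 2 of them Present on at least 3 arrays of a group. The part of the fat cell markers in the genotype differences was not tested. Of 7 oligodendrocyte markers on the array, 4 to 5 were Present on at least 3 arrays of a group. Their summed signal was 2901 to 3984 in ApoE3 and 2142 to 3808 in ApoE4 on chow. On high-fat diet it was 4548 to 5909 against 2792 to 4174, without overlap. Of 8 astrocyte markers, 6 were Present on at least 3 arrays of every group, and their sums overlapped between the genotypes. The part of the oligodendrocyte markers alone was not tested. Several measures of the arrays moved with the genotype: the Present share was 52.9% to 58.15% in ApoE3 and 56.0% to 60.57% in ApoE4, and the median signal was 153.4 to 181.8 against 141.7 to 164.8. The mean log2 signal of 9 hybridization control probe sets was 11.26 to 11.64 in ApoE3 and 10.49 to 11.43 in ApoE4. The mean log2 signal of 16 neuron, oligodendrocyte and astrocyte markers was 8.12 to 8.60 in ApoE3 and 7.86 to 8.40 in ApoE4. The log2 ratio of the 3′ to the 5′ Actb probe sets, which follows RNA integrity, ran from 1.58 to 2.40 (median 1.89) in ApoE3 and from 1.51 to 2.07 (median 1.67) in ApoE4, and its part was not tested. The Present share, the hybridization controls and the brain markers were each added as a covariate, with counts given after the average over diets.

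Genotype was compared first, as ApoE4 over ApoE3 at the same diet. All differences are log2 fold changes ± SE of log2(signal + 16) from limma, with 6 arrays per group. In the main fit the Benjamini-Hochberg adjusted p ran over the 8261 genes. Probe sets other than the brightest were fitted among all non-control probe sets Present on at least 6 of 24 arrays, and adjusted over those. On chow, 3 of 28 genes passed, 10.7% against 9.74% of all genes tested: Etfdh and Pdk4 rose, as 4.14% of all genes did, and Crat fell, as 5.60% of all genes did. On high-fat diet 11 passed, 39.3% against 27.9% of all genes tested. There Decr1, Eci2, Eci1, Etfa, Etfdh, Hadh and Echs1 rose, where 10.8% of all genes did. Crat, Acaa1a, Acads and Hadha fell, where 17.1% of all genes did. The arrays of the genotypes did not overlap on that diet for Crat, Decr1, Eci2, Etfa and Hadh, 5 of the 28 genes, and for 8.74% of all genes tested. In bulk tissue, fewer cells of a type and less RNA per cell cannot be told apart. The median difference of the 28 genes was 0.06 on chow, where that of all genes was -0.02, and 0.10 on high-fat diet, where that of all genes was -0.05. After quantile normalization the median of all genes was 0.004 on chow and -0.003 on high-fat diet. Values on high-fat diet then shrank in both directions, as for Etfa (0.12) and Acads (-0.19). At equal trimmed means, the median array signal was 149.7 in ApoE4 and 170.45 in ApoE3. The 28 genes were not matched to other genes by signal level, and the part of the scaling was not tested. The sign was the same on both diets for 24 of the 28 genes (14 higher and 10 lower in ApoE4) and for 74.0% of all genes.

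**Figure D1:**
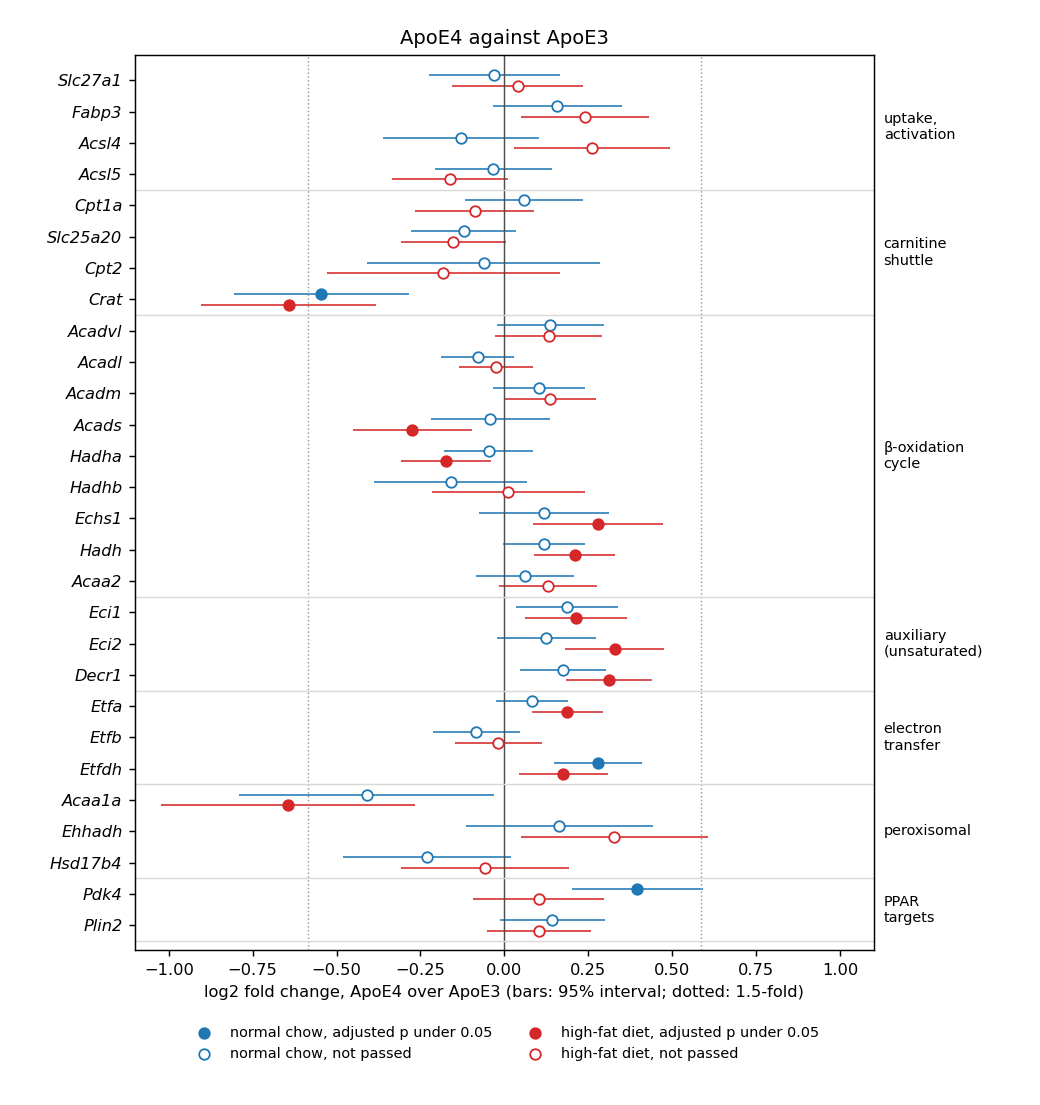
Differences between ApoE4 and ApoE3 for the 28 tested genes, ordered by role, with the log2 fold change on the x axis, 95% intervals as bars, chow in blue and high-fat diet in red, and filled points where the adjusted p was under 0.05. The 3 auxiliary enzymes lie to the right of 0 on both diets, Crat lies farthest left on chow, and Crat and Acaa1a lie farthest left on high-fat diet.

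The enzymes that prepare unsaturated fatty acids moved together. All 3 rose in ApoE4 on high-fat diet and in the average over both diets, and on chow all 3 were higher without passing. Decr1, the mitochondrial 2,4-dienoyl-CoA reductase, read 981.9 to 1181.8 (median 1057.5) in ApoE3 on high-fat diet and 1193.7 to 1537.7 (median 1297.8) in ApoE4 on that diet. Every ApoE4 array lay above every ApoE3 array. The difference was 0.31 ± 0.06, 1.24-fold, with an adjusted p of 0.00102. On chow Decr1 read 1156.4 to 1318.6 (median 1224.3) in ApoE3 and 1262.2 to 1507.8 (median 1367.0) in ApoE4. These groups overlapped, and the difference of 0.18 ± 0.06 had an adjusted p of 0.0737. A second, dimmer Decr1 probe set did not show the difference, with a log2 fold change of 0.07 on chow and -0.07 on high-fat diet.

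Eci2, an enoyl-CoA isomerase found in mitochondria and peroxisomes, read 1128.0 to 1279.5 (median 1205.8) in ApoE3 and 1400.2 to 1732.3 (median 1501.3) in ApoE4 on high-fat diet. The groups did not overlap, and the difference was 0.33 ± 0.07 with an adjusted p of 0.0019. On chow the ApoE3 arrays read 1175.7 to 1502.7 (median 1336.9) and the ApoE4 arrays 1289.6 to 1784.5 (median 1436.3). These groups overlapped, and the difference of 0.13 ± 0.07 did not pass (adjusted p = 0.257). Eci1, the mitochondrial enoyl-CoA isomerase, read 1100.5 to 1307.2 (median 1199.0) in ApoE3 and 1188.3 to 1568.6 (median 1364.0) in ApoE4 on high-fat diet. Its groups overlapped, and the rise of 0.21 ± 0.07 passed with an adjusted p of 0.0334, which ended when any of 6 arrays was left out (adjusted p up to 0.0995).

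Electrons leave beta-oxidation through a flavoprotein of an alpha and a beta subunit, Etfa and Etfb, and through Etfdh, the membrane enzyme that passes them to ubiquinone. Etfdh rose on both diets. On chow it read 1179.5 to 1524.2 (median 1355.6) in ApoE3 and 1552.6 to 1718.4 (median 1621.0) in ApoE4. Of the 28 genes, 1 (Etfdh) had groups that did not overlap on chow, which was so for 3.10% of all genes tested. The difference was 0.28 ± 0.06, 1.21-fold, with an adjusted p of 0.0085. On high-fat diet it read 1179.6 to 1475.3 (median 1328.5) against 1363.3 to 1665.4 (median 1484.4), with overlap, and the rise was 0.18 ± 0.06 (adjusted p = 0.0422). That call ended when any of 9 arrays was left out.

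Etfa read 2290.0 to 2668.0 (median 2438.9) in ApoE3 and 2691.2 to 2939.6 (median 2805.1) in ApoE4 on high-fat diet. The groups did not overlap, and the rise was 0.19 ± 0.05 with an adjusted p of 0.01. On chow its difference was 0.08 ± 0.05 (adjusted p = 0.308). Its partner subunit Etfb did not pass on either diet, with differences of -0.08 ± 0.06 on chow and -0.02 ± 0.06 on high-fat diet.

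Within the mitochondrial cycle itself, 4 of 9 genes passed on high-fat diet, in both directions, 44.4% against 27.9% of all genes tested. On chow 0 of them passed in limma when read from their brightest probe sets, against 9.74%, and 0 also had an unadjusted p under 0.05. Among their other sets, both of Acaa2 rose on chow (0.25, adjusted p = 0.0494, and 0.32, adjusted p = 0.0185). The other Hadhb set rose as well (0.23, adjusted p = 0.0194). A dim Hadh set was lower there without passing (-1.27, adjusted p = 0.0698). Hadh, which oxidizes 3-hydroxyacyl-CoA of medium and short chains, read 3519.1 to 3870.1 (median 3678.2) in ApoE3 and 4010.9 to 4560.8 (median 4303.7) in ApoE4 on high-fat diet. The groups did not overlap, and the rise was 0.21 ± 0.06 with an adjusted p of 0.0112. Another Hadh probe set read 1512.2 to 1799.3 in ApoE3 and 1429.5 to 2072.2 in ApoE4 on that diet, with overlap. When that set stood for the gene, Hadh did not pass (0.18 ± 0.07, adjusted p = 0.0536). Echs1, the short-chain enoyl-CoA hydratase, read 849.1 to 1299.1 (median 983.0) against 1082.3 to 1452.5 (median 1277.3) on that diet. Its groups overlapped, and the rise of 0.28 ± 0.10 (adjusted p = 0.0297) ended when any of 7 arrays was left out. Acads, the short-chain acyl-CoA dehydrogenase, read 332.4 to 431.2 (median 350.1) in ApoE3 and 272.4 to 335.3 (median 285.1) in ApoE4 on high-fat diet. It fell by 0.28 ± 0.09 on the log2 scale (adjusted p = 0.0203) with slight overlap, and the call ended without ApoE3 high-fat replicate 6 (adjusted p = 0.0572) or ApoE4 high-fat replicate 5 (0.0507).

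Hadha, the alpha subunit of the trifunctional protein that acts on long chains, read 1313.3 to 1785.0 (median 1518.8) in ApoE3 and 1226.5 to 1426.7 (median 1379.1) in ApoE4 on high-fat diet. The groups overlapped. The fall of 0.17 ± 0.07 was the closest to the threshold of the 11 (adjusted p = 0.0473) and held in 8 of 24 fits that left out an array. Acadm, the medium-chain acyl-CoA dehydrogenase, was higher in ApoE4 by 0.10 ± 0.07 on chow (adjusted p = 0.322) and 0.14 ± 0.07 on high-fat diet (adjusted p = 0.13). On chow it read 2673.3 to 3482.1 (median 2913.9) against 3001.6 to 3518.0 (median 3154.7), with overlap. The long-chain dehydrogenases Acadvl and Acadl, the thiolase Acaa2 and the beta subunit Hadhb did not pass on either diet when read from their brightest probe sets.

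In the carnitine shuttle Crat alone passed on either diet when genes were read from their brightest probe sets. Crat, which moves short acyl groups between coenzyme A and carnitine and so exports acetyl groups, fell on both. On chow it read 94.1 to 206.5 (median 154.9) in ApoE3 and 85.8 to 134.4 (median 98.2) in ApoE4. The groups overlapped through a single ApoE3 array at 94.1, and the fall was 0.55 ± 0.13 on the log2 scale (adjusted p = 0.00883), a call that ended after quantile normalization (adjusted p = 0.0863). On high-fat diet it read 142.5 to 176.8 (median 165.1) in ApoE3 and 75.6 to 119.4 (median 97.5) in ApoE4. No ApoE4 array reached the lowest ApoE3 array, and the difference of -0.64 ± 0.13, 1.56-fold lower, had an adjusted p of 0.00085. Crat was Present on 6 of 6 arrays in each ApoE3 group. In ApoE4 it was Present on 2 of 6 arrays on chow and 3 of 6 on high-fat diet. The ApoE4 level therefore lies near the limit of detection. Another, dimmer Crat probe set was Present on 0 of 6 arrays in every group and was not tested. Its mean signal was 60.2 in ApoE3 and 66.9 in ApoE4 on chow, and 62.8 against 62.4 on high-fat diet. A set that was not detected cannot decide whether Crat fell, so the fall rests on the brighter set alone.

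Cpt1a, which makes long-chain acylcarnitines at the outer mitochondrial membrane and is taken as the gate of the pathway, did not pass. Its difference was 0.06 ± 0.09 on chow (adjusted p = 0.69) and -0.09 ± 0.09 on high-fat diet (adjusted p = 0.454). On chow it read 2259.0 to 2678.7 (median 2538.4) in ApoE3 and 2038.6 to 3173.0 (median 2736.8) in ApoE4. The ApoE4 arrays lay on both sides of the ApoE3 arrays. Slc25a20, the carnitine-acylcarnitine carrier, and Cpt2, which returns the chain to coenzyme A inside, did not pass on either diet by their brightest probe sets. A dimmer Cpt2 set was lower in ApoE4 on chow (-0.50 ± 0.15, adjusted p = 0.0331).

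**Figure D2:**
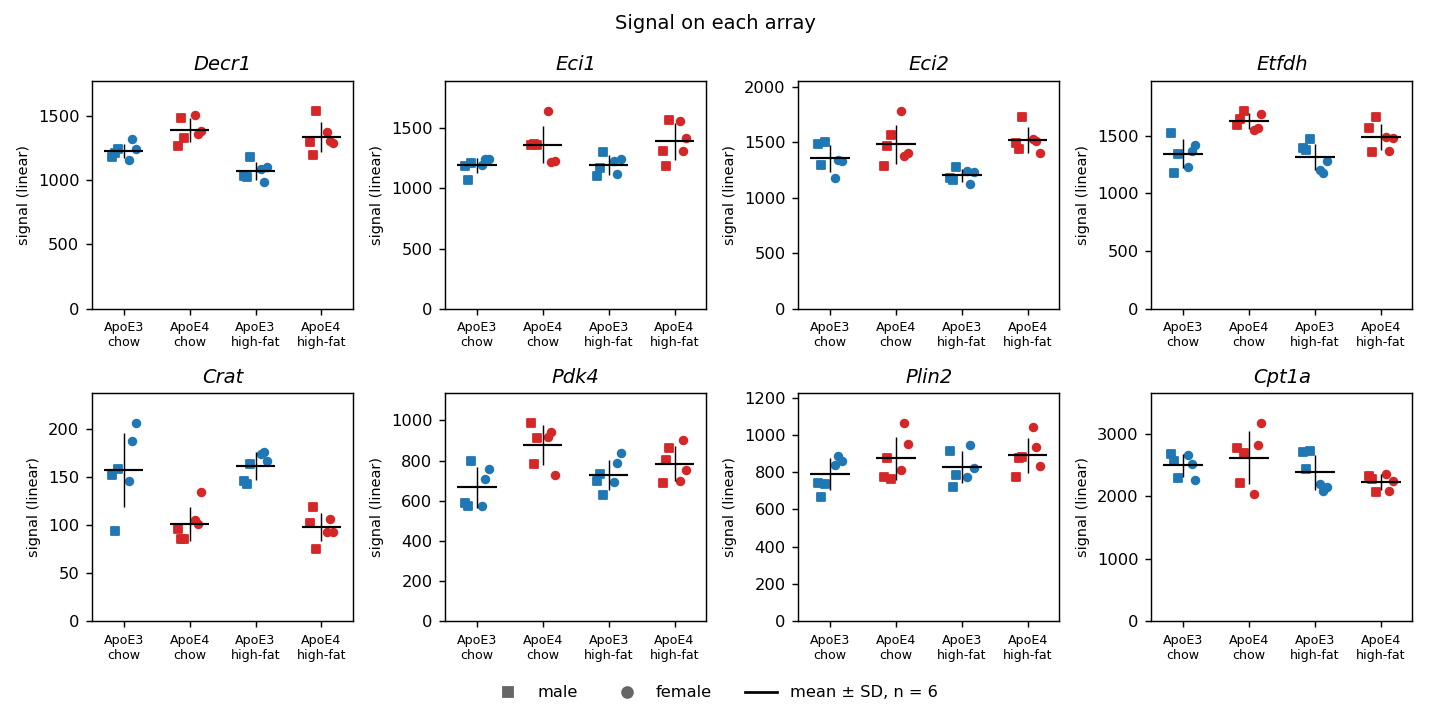
Signal of 8 genes on each of the 24 arrays, on a linear y axis that starts at 0, with squares for males, circles for females, and a line and bar for the mean ± SD of 6 arrays. ApoE4 lies above ApoE3 without overlap for Decr1 and Eci2 on high-fat diet and for Etfdh on chow, Crat lies below on high-fat diet, and the ranges of Cpt1a and Plin2 overlap in every pair of groups.

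Of the 3 peroxisomal genes, Acaa1a passed on high-fat diet. Acaa1a, the peroxisomal thiolase that ends each cycle there, read 1303.5 to 1809.5 (median 1694.3) in ApoE3 and 719.9 to 1917.5 (median 872.7) in ApoE4. The groups overlapped, since the ApoE4 arrays ranged from far below to above the ApoE3 arrays. The fall was 0.65 ± 0.18 on the log2 scale with an adjusted p of 0.0134. Ehhadh, the peroxisomal bifunctional enzyme that responds strongly to PPAR alpha agonists in rodent liver, was higher by 0.33 ± 0.14 on high-fat diet without passing (adjusted p = 0.072). Hsd17b4, the other bifunctional enzyme, differed by -0.23 ± 0.12 on chow and -0.06 ± 0.12 on high-fat diet and did not pass.

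Among the PPAR alpha targets outside the oxidation machinery, Pdk4 rose on chow. Pdk4 is the kinase that blocks pyruvate dehydrogenase and spares glucose when fat is burnt. It read 572.4 to 796.9 (median 647.4) in ApoE3 and 725.7 to 987.2 (median 915.4) in ApoE4 on chow. The groups overlapped, and the rise was 0.40 ± 0.10, 1.32-fold, with an adjusted p of 0.0106. On high-fat diet it read 628.0 to 838.5 (median 715.0) against 685.8 to 901.2 (median 778.2). These groups overlapped more widely, and the difference of 0.10 ± 0.10 did not pass (adjusted p = 0.442). Plin2, which coats lipid droplets, was higher by 0.14 ± 0.08 on chow (adjusted p = 0.216) and 0.10 ± 0.08 on high-fat diet (adjusted p = 0.319), with overlapping groups on both.

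Ppara, the receptor itself, was Present on 0 of 24 arrays, with signals of 6.0 to 70.4, and was not tested. Angptl4, a secreted lipase inhibitor that responds to PPAR agonists, was Present on 0 of 24 arrays by its brighter probe set and on 5 by the other, and was not tested either. A transcript at this limit of detection has no level that could be compared. Ucp2, Acsl1 and Acsl3 had no probe set assigned to them alone and were not analysed here. Of the genes of uptake and activation, the transporter Slc27a1 and the acyl-CoA synthetases Acsl4 and Acsl5 did not pass on either diet. Fabp3, the cytosolic fatty acid carrier of heart and muscle, read 1375.2 to 2217.1 (median 1570.2) in ApoE3 and 1729.0 to 2311.3 (median 2009.8) in ApoE4 on high-fat diet, with overlap. Its difference of 0.24 ± 0.09 came close to the threshold (adjusted p = 0.0545).

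Averaged over both diets, with 12 arrays per genotype, 15 of the 28 genes passed, 53.6% against 38.1% of all genes tested. Of all genes 14.6% rose and 23.5% fell. The 11 that rose were Decr1 (0.24 ± 0.05), Etfdh (0.23 ± 0.05), Eci2 (0.23 ± 0.05), Eci1 (0.20 ± 0.05), Hadh (0.16 ± 0.04), Pdk4 (0.25 ± 0.07), Etfa (0.14 ± 0.04), Fabp3 (0.20 ± 0.07), Echs1 (0.20 ± 0.07), Ehhadh (0.25 ± 0.10) and Acadm (0.12 ± 0.05). The 4 that fell were Crat (-0.59 ± 0.09), Acaa1a (-0.53 ± 0.13), Acads (-0.16 ± 0.06) and Slc25a20 (-0.14 ± 0.05). Adjusted p-values ran from 2.9e-05 for Crat to 0.0478 for Acadm. The calls of Acadm, Ehhadh, Slc25a20 and Acads ended in more than 10 of the 24 fits that left out an array, while those of the other 11 held in all 24. Other settings ended some of these 11. After quantile normalization Etfa, Echs1 and Fabp3 no longer passed (adjusted p 0.0701 to 0.0759), nor did Acadm and Acads, while Hadha then passed (-0.15, adjusted p = 0.0145). Pdk4 did not pass with the hybridization control covariate (adjusted p = 0.0688). Hadh turned to -0.29 with its probe sets averaged (adjusted p = 0.00772). Cpt1a (-0.02 ± 0.06, adjusted p = 0.863), Plin2 (0.12 ± 0.05, adjusted p = 0.0705) and Hadha (-0.11 ± 0.05, adjusted p = 0.0592) did not pass.

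The counts moved with the array measures that differ between the genotypes. With the Present share of each array as a covariate, 0 genes passed on chow, 3 on high-fat diet and 2 on average, and of all genes 12, 404 and 158 passed in place of 805, 2302 and 3146. Adding the brain marker mean instead left 2, 1 and 3, and of all genes 418, 848 and 1293. The listed genes then passed at a lower rate than all genes on high-fat diet and on average, and at a higher rate on chow. With that covariate the chow rise of Pdk4 no longer passed (0.33, adjusted p = 0.0636). With the 4 arrays dimmest in the hybridization controls left out, 6 passed on chow, and 1088 of all genes. With the hybridization control mean as a covariate, 9 passed on chow, and 1407 of all genes. Decr1 passed on average in each of 14 alternatives (adjusted p 9.77e-05 to 0.0455) and in each of 24 fits that left out an array. Its high-fat call ended with its probe sets averaged (0.12, adjusted p = 0.0846) and with the brain marker mean (0.22, adjusted p = 0.0515).

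Genes read by more than 1 probe set did not always give the same answer. Names that end in _x_at mark probe sets in which some probes also match other transcripts. In the average over diets, 8 of 9 such sets of these genes were lower in ApoE4 (median -0.22), while 24 of the other 34 sets were higher (median 0.13). The medians over all kept probe sets were -0.09 for 946 _x_at sets and -0.04 for 11787 others. Within groups, the _x_at sets of these genes spread more among the ApoE4 arrays, with a median SD on the log2 scale of 0.40 on chow and 0.39 on high-fat diet, against 0.13 and 0.24 among the ApoE3 arrays. The other sets had median SDs of 0.13 to 0.16 in the 4 groups.

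Hadhb shows the disagreement plainly. Its brightest set, an _x_at set, read 3399.1 to 6109.0 (median 5480.5) in ApoE4 on chow against 5197.3 to 5902.1 (median 5731.1) in ApoE3. Its other set read 4644.8 to 5085.1 (median 4882.9) in ApoE4 against 3855.6 to 4483.9 (median 4073.2) in ApoE3. The groups overlapped by the first set and did not overlap by the other, which rose by 0.23 ± 0.06 on chow (adjusted p = 0.0183) and by 0.23 ± 0.06 on high-fat diet (adjusted p = 0.00742) once _x_at sets were left out. Hadh, Cpt1a and Cpt2 each had a dimmer _x_at set that was lower in ApoE4 on average, by a log2 fold change of -1.18 ± 0.31, -0.81 ± 0.27 and -0.47 ± 0.11. The other sets of Acaa2, 0.24 and 0.37 on average, passed where its brightest did not. Both sets of Acaa1a are _x_at sets, and its fall rests on the brightest. The other was lower by 0.20 ± 0.18 on high-fat diet (adjusted p = 0.429) and by 0.22 ± 0.13 on average (adjusted p = 0.189) without passing, and with the sets averaged Acaa1a no longer passed on high-fat diet (adjusted p = 0.0618). Hsd17b4 had a set other than the _x_at set given first, and it rose by 0.19 ± 0.06 on average (adjusted p = 0.0163). Without _x_at sets, 27 of the genes could be tested, and 4 passed on chow, 10 on high-fat diet and 16 on average, against 9.8%, 28.2% and 38.2% of all genes. Of these 3, 7 and 13 rose. Hadh, whose brightest set is an _x_at set, then no longer passed on high-fat diet (adjusted p = 0.0536). On average it still rose (0.155 ± 0.048, adjusted p = 0.0132).

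**Figure D3:**
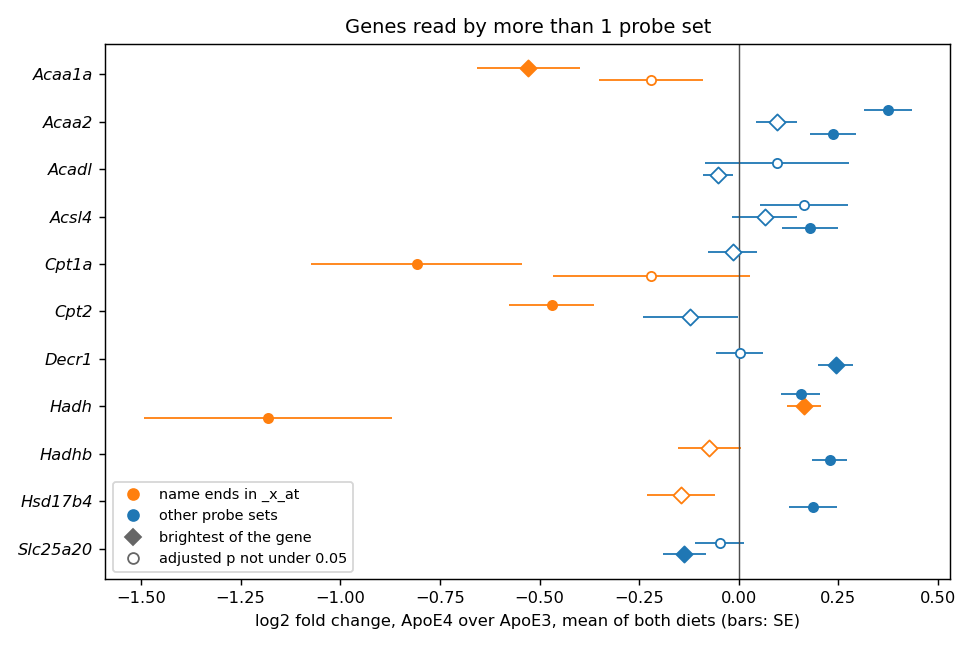
Average difference between ApoE4 and ApoE3 for every kept probe set of the 11 genes read by more than 1, with the log2 fold change on the x axis, SE as bars, _x_at sets in orange, diamonds for the brightest set of a gene and filled points where the adjusted p was under 0.05. The orange points lie to the left of 0 except the brightest Hadh set, and the Hadh set at -1.18 has the widest error.

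Diet was compared as high-fat over chow within each genotype. In ApoE3, 0 of 28 genes passed in limma, against 0.230% of all genes tested, and 2 of the 28 had an unadjusted p under 0.05. In ApoE4, 0 of 28 passed, against 0 of all genes tested, and 3 had an unadjusted p under 0.05. The 95% intervals of all 28 genes lay within 1.5-fold in either direction in both genotypes. The widest reached 1.47-fold for a rise of Cpt2 in ApoE3 and 1.43-fold for a fall of Acaa1a in ApoE4. None of the 28 genes had groups that did not overlap, where 0.920% of all genes did so in ApoE3 and 0.145% in ApoE4. The summed oligodendrocyte markers in ApoE3 were 4548 to 5909 on high-fat diet and 2901 to 3984 on chow, without overlap. In ApoE4 these sums overlapped between the diets. Their part in the diet differences was not tested.

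In ApoE3 the smallest p-values belonged to Decr1 (-0.20 ± 0.06, adjusted p = 0.16), Eci2 (-0.17 ± 0.07, adjusted p = 0.306) and Acadm (-0.12 ± 0.07, adjusted p = 0.471). In ApoE4 they belonged to Cpt1a (-0.22 ± 0.09, adjusted p = 0.542), Acsl4 (0.28 ± 0.11, adjusted p = 0.559) and Hadha (-0.15 ± 0.07, adjusted p = 0.597). The genes best known as PPAR alpha targets had intervals of the same small size. The interval for Pdk4 ran from -0.06 to 0.33 in ApoE3 and from -0.36 to 0.04 in ApoE4. The interval for Plin2 ran from -0.09 to 0.23 in ApoE3 and from -0.13 to 0.19 in ApoE4. Cpt1a had an interval of -0.25 to 0.11 in ApoE3 and of -0.40 to -0.04 in ApoE4. Averaged over genotypes, 0 of 28 passed, against 0.0363% of all genes tested, and 3 had an unadjusted p under 0.05. Those were Decr1 (-0.13 ± 0.05, adjusted p = 0.292), Cpt1a (-0.15 ± 0.06, adjusted p = 0.387) and Acadm (-0.10 ± 0.05, adjusted p = 0.452).

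**Figure D4:**
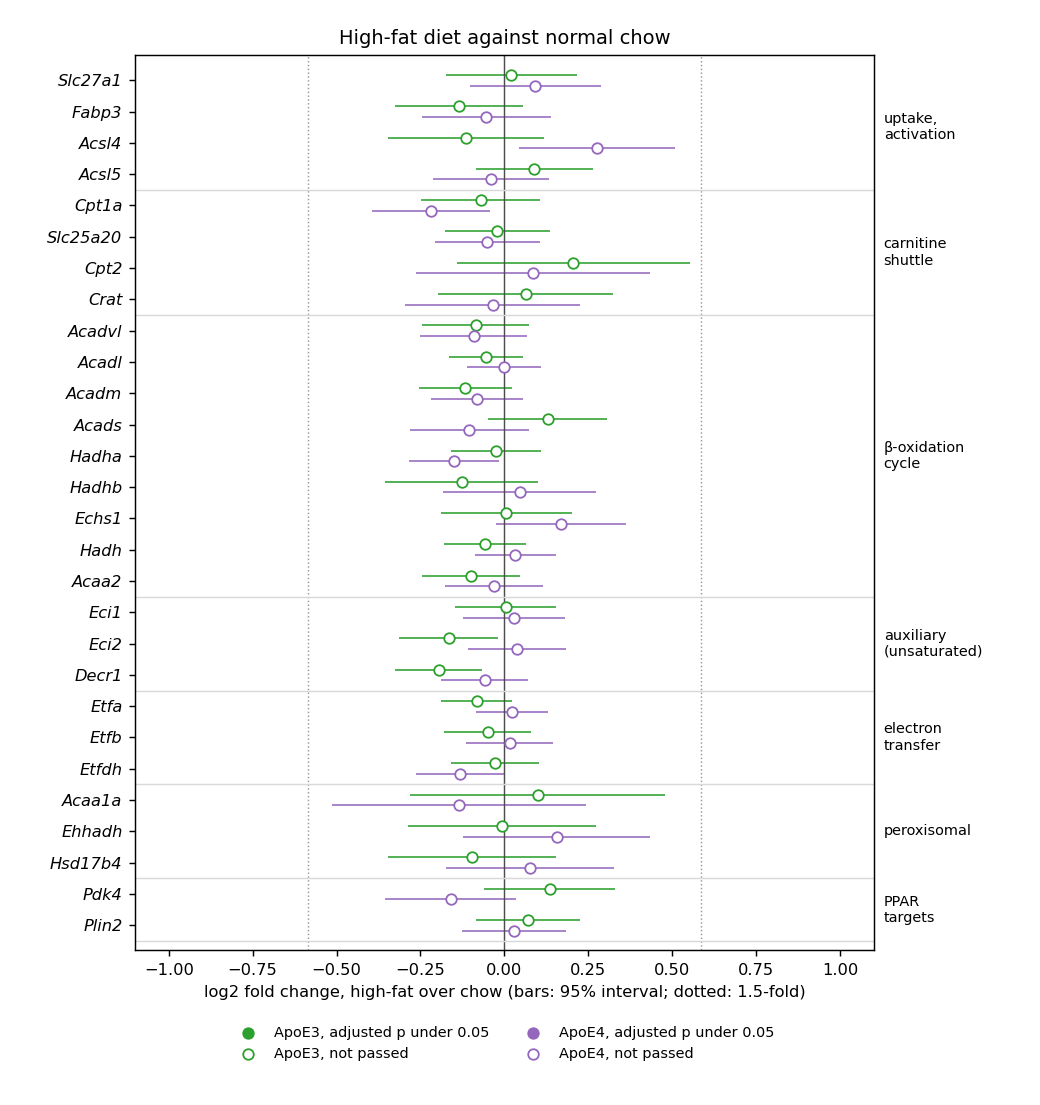
Differences between high-fat diet and chow for the 28 tested genes, ordered by role, with the log2 fold change on the x axis, 95% intervals as bars, ApoE3 in green and ApoE4 in purple. No point is filled, which means that no adjusted p was under 0.05, and every bar lies inside the dotted lines at 1.5-fold.

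The diet effect was not shown to differ between the genotypes for any of the 28 genes. In the test of the interaction 0 of 28 passed in limma, against 0 of all genes tested, and 2 of the 28 had an unadjusted p under 0.05. Those were Acsl4, with a difference between the diet effects of 0.39 ± 0.16 (adjusted p = 0.413), and Pdk4, with -0.29 ± 0.14 (adjusted p = 0.474). Eci2 came next with 0.21 ± 0.10 (adjusted p = 0.504). The rise of Pdk4 in ApoE4 on chow and its smaller value on high-fat diet were therefore not shown to differ.

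Females and males were compared over all groups, with 12 arrays each. In limma 0 of 28 genes passed, against 1.28% of all genes tested, and 4 had an unadjusted p under 0.05. Acsl5, an acyl-CoA synthetase of mitochondria and endoplasmic reticulum, was higher in females by 0.21 ± 0.06 (adjusted p = 0.0951). In ApoE3 on chow it read 347.8 to 372.4 in the 3 females and 254.0 to 316.1 in the 3 males, without overlap. In the other 3 groups females and males overlapped. Plin2 was higher in females by 0.18 ± 0.05 (adjusted p = 0.112) and Crat by 0.22 ± 0.09 (adjusted p = 0.253).

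A further 89 genes around the same pathway were listed by role, and 67 were tested. On chow 4 passed, 5.97% against 9.74% of all genes tested: Acad11, an acyl-CoA dehydrogenase, rose by 0.29 ± 0.07, while the brain-enriched acyl-CoA synthetase Acsl6 (-0.22 ± 0.06), the fatty acid carrier Fabp4 (-0.56 ± 0.17) and the peroxisomal oxidase Acox2 (-0.27 ± 0.08) fell. On high-fat diet 18 passed, 8 higher and 10 lower, 26.9% against 27.9% of all genes tested. By p-value these were led by Hsd17b10, a mitochondrial dehydrogenase of branched and short chains (0.38 ± 0.08), Ivd, of leucine breakdown (-0.34 ± 0.07), and Ech1, a dienoyl-CoA isomerase (0.30 ± 0.07). The transporter Slc27a4 (-0.60 ± 0.14), the kinase Pdk2 (-0.44 ± 0.11) and the uncoupling protein Ucp3 (-0.53 ± 0.13) followed. Ech1, like Decr1, Eci1 and Eci2, serves the breakdown of unsaturated chains, and it read 1162.4 to 1459.4 (median 1276.8) in ApoE3 and 1400.8 to 1860.3 (median 1568.0) in ApoE4 on high-fat diet. Its groups overlapped slightly.

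Averaged over diets 25 of the 67 passed, 37.3% against 38.1% of all genes tested, 10 higher and 15 lower. These were led by Acad11 (0.28 ± 0.05), Hsd17b10 (0.26 ± 0.06), Ivd (-0.24 ± 0.05), Ucp3 (-0.42 ± 0.09), Acsl6 (-0.20 ± 0.04) and Ech1 (0.23 ± 0.05). Their median difference was -0.05, where that of all genes tested was -0.04. Of the other peroxisomal genes, 4 of 13 rose and 2 fell, 46.2% called. Of the genes of PPAR partners and cofactors 6 were tested, and 0 rose and 4 fell, where 23.5% of all genes fell: the oestrogen-related receptor Esrra (-0.26 ± 0.06), the corepressor Nrip1 (-0.51 ± 0.14), the retinoid X receptor Rxrb (-0.34 ± 0.12) and Lpin1 (-0.22 ± 0.08). These 4 were named after their values were seen. The receptor genes Ppard and Pparg were Present on 0 of 24 arrays. For diet, 0 of 67 passed in either genotype, and 12 in ApoE3 and 7 in ApoE4 had an unadjusted p under 0.05.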

How the data were processed

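The deposited intensity values are linear signals with detection calls, produced by the authors in GCOS 1.4, per the submitters' processing notes, and scaled array by array. The algorithm's settings are not given in the labels. A second deposited table of the same signals was equal in 544560 of 544560 cells. Gene names came from the array's annotation, in which 20380 probe sets name 1 gene.

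Signals were taken to log2 after adding 16, which understates changes of dim genes. Probe sets Present on at least 6 of 24 arrays were kept, and the brightest stood for its gene. The linear model held a mean per group and a sex term over all arrays (limma 3.58.1, R 4.3.3, empirical Bayes with trend and robust estimation). Tests were two-sided, Benjamini-Hochberg adjustment ran over 8261 genes in the main fit, and an adjusted p under 0.05 passed. Probe sets other than the brightest were adjusted over all kept non-control probe sets. The fit without _x_at sets was adjusted over 8170 genes. The fit was run on simulated data in which genes varied independently. No array measure moved with the genotype there, so that run cannot speak for the calls here. The number of arrays limits the precision. All listed genes are accounted for. Named were those that passed, the 3 of smallest p where fewer passed, Ppara, Cpt1a, Pdk4, Plin2, Angptl4, Acadm and Hadha always, and up to 6 pathway genes of smallest p per comparison. The genes and lists were chosen with earlier results of these data known.

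Alternatives were another pseudocount, quantile normalization, other detection filters, no sex term, a replicate block, only the arrays compared, array weights, the mean of probe sets, covariates for brain markers, hybridization controls or Present share, and leaving out arrays or _x_at sets. The covariate for Present share, the omission of _x_at sets and that of the 4 arrays dimmest in the hybridization controls were chosen after seeing the data. Figures were drawn in Python 3.11.15 with matplotlib 3.10.9.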

Additional observations from a re-analysis of the deposited data

Results flagged for a closer look

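In 6 of 112 combinations of gene and group, a single array stood apart from the other 5 by Dixon's test at 95%, which chance alone gives in about 1 group of 20. Acads read 431.2 in ApoE3 high-fat replicate 6, where the others read 332.4 to 355.1, and its fall on high-fat diet did not pass without that array (adjusted p = 0.0572). Cpt2 read 587.8 in ApoE3 chow replicate 1 against 778.1 to 903.3, and 1154.3 in ApoE4 high-fat replicate 4 against 704.3 to 818.0. Eci1 read 1067.2 in ApoE3 chow replicate 2 against 1185.0 to 1246.6. Etfa read 2957.9 in ApoE3 chow replicate 3 against 2486.9 to 2623.1, and Etfb read 5933.6 in ApoE3 chow replicate 4 against 5203.9 to 5405.4.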

How the results depend on the processing

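On chow, where 3 genes passed, 9 passed with the hybridization control covariate, 6 when the 4 arrays dimmest in the hybridization controls were left out (ApoE4 high-fat replicates 2, 5 and 6 and ApoE4 chow replicate 5) and 0 with the Present share as a covariate. On high-fat diet, where 11 passed, 7 passed after quantile normalization, 1 (Crat) with the brain marker covariate and 3 with the Present share. Averaged over diets, where 15 passed, 3 passed with the brain marker covariate and 2 with the Present share. Between the sexes 1 passed with the brain marker covariate (Acsl5, 0.22, adjusted p = 0.0406). The causes of these shifts were not tested. Hadh turned when its probe sets were averaged, to -0.24 on high-fat diet (adjusted p = 0.122) and -0.29 on average (adjusted p = 0.00772), which takes in its dim _x_at set. Acads turned to 0.037 on average with the Present share (adjusted p = 0.905).

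With each array left out in turn, 3 to 4 genes passed on chow, 7 to 12 on high-fat diet and 11 to 15 on average. The count of 7 arose without ApoE3 high-fat replicate 1 or 6 or ApoE4 high-fat replicate 3 or 4. Diet, the interaction and sex gave 0 to 0.

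Same-numbered arrays of different groups deviated with correlations of -0.172 to 0.262, over 0.1 in 23 of 36 pairs. All 6 pairs did so in 1 of the 6 pairs of groups (ApoE3 chow with ApoE4 high-fat). An array correlated best with its own number in 30 of 72 cases, more often than a random match among 6 arrays would give. Numbers 1 to 3 were males and 4 to 6 females in every group, so a shared number and a shared sex were not told apart. Whether the numbers pair the arrays was not settled, and the main fit did not pair them. With the replicate block, 3 genes passed on chow, 11 on high-fat diet and 13 on average, without Ehhadh (adjusted p = 0.0611) and Slc25a20 (0.0537), and 0 for diet in either genotype, for the average over genotypes and for the interaction.

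Over all genes, 805 passed on chow but 514 with only the arrays compared, 418 with the brain marker covariate, 1407 with the hybridization covariate, and 488 to 525 without ApoE3 chow replicate 1 or 2 or ApoE4 chow replicate 1, 2 or 4. On high-fat diet 848 of 2302 and on average 1293 of 3146 passed with the brain marker covariate. After quantile normalization 1615 passed on high-fat diet. The 19 genes of diet in ApoE3 became 107 with array weights, 33 with the mean of probe sets, 0 with the brain marker covariate and 0 to 74 with an array left out.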

Other observations

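The 28 tested genes differed in how much arrays of a group spread. Acadl, the long-chain acyl-CoA dehydrogenase, and Etfa had the smallest pooled SD within groups, 0.08 on the log2 scale each, at percentiles 1.2 and 2.0 of all genes tested, while Acaa1a (0.34), Cpt2 (0.32) and Ehhadh (0.27) had the largest. Cpt2 read 646.9 to 1435.5 within ApoE3 on high-fat diet alone, and its interval for ApoE4 over ApoE3 on that diet ran from -0.53 to 0.17.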
